A study of Mus musculus with 5 samples.

Results

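The 10 genes described here are ligands, receptors, cytoplasmic components and DNA-binding factors of Wnt signalling: Wnt7a, Wnt7b, Wnt5a, Fzd1, Lgr5, Ctnnb1, Axin2, Tcf7l1, Tcf7l2 and Lef1, out of 21883 protein-coding genes of the mouse RefSeq annotation. For each gene, every peak that overlapped the gene body or the 50 kb on either side was taken from 4 deposited peak lists of chromatin immunoprecipitation with sequencing. The lists are TLX in brain tumour stem cells (BTSC), TLX in neural stem cells (NSC), H3K27ac in BTSC and H3K27ac in NSC. TLX is an orphan nuclear receptor that maintains neural stem cells, and H3K27ac is acetylation of lysine 27 of histone H3, a mark of active promoters and enhancers. In the TLX libraries, BTSC and NSC cultures carried TLX with a 3xTY1 tag from a retrovirus, under selection for stable transduction, and TLX was precipitated through the TY1 tag. The H3K27ac libraries came from BTSC and NSC cultures that had not been transduced, so binding and acetylation were measured in different cells. The labels call the neural stem cells primary and give neither strain, age nor sex, and how the tumour cells arose is also unstated there. The series also has a control from cells with the empty vector MSCV-neo, made without antibody, whose peaks are not analysed here. Each group is 1 library, so differences between BTSC and NSC have no replicate check and no test, and all values describe these libraries. How many reads each library had is unknown, and a peak missing from a list means only that none was called there.

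Wnt ligands are secreted and bind Frizzled receptors together with the co-receptors Lrp5 and Lrp6. Without a ligand, a complex built on Axin marks beta-catenin for degradation. With a ligand, beta-catenin accumulates, enters the nucleus and acts through TCF and LEF factors at target genes. The pathway drives proliferation of neural stem and progenitor cells, and in adult mouse neural stem cells TLX is known to activate Wnt7a.

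The lists differ in length and by chromosome. The TLX lists hold 1436 peaks in BTSC and 7458 in NSC, and the H3K27ac lists 31597 peaks in BTSC and 31266 in NSC. Wnt7a and Tcf7l1 lie on chromosome 6, where all H3K27ac-covered base pairs in BTSC were 0.789 times those in NSC, and where the BTSC list had 75 TLX peaks and the NSC list 769. On 18 other chromosomes (all but 1, 6 and Y) the ratio of covered base pairs ran from 0.96 to 1.15, and on chromosome 1 it was 1.66. The ratio of TLX peak numbers, BTSC over NSC, was 0.0975 on chromosome 6, just below the range of 0.1 to 0.223 on those 18. On chromosome 1 it was 0.644. The part of this imbalance in the values of Wnt7a and Tcf7l1 was not tested, and ratios relative to the chromosome are given beside the plain ones. As a limited check of the cell type, 6 of 6 neural stem cell genes (Sox2, Nes, Slc1a3, Fabp7, Vim and Olig2) had H3K27ac within 1 kb of a gene end in BTSC and likewise in NSC. The share over all genes was 51.7% in BTSC and 52.2% in NSC, and astrocyte genes were not checked. By contrast, 0 of 4 microglial and 0 of 4 endothelial genes had such H3K27ac in either. Of 4 neuronal genes, 1 had it in BTSC and 2 in NSC, and of 3 oligodendrocyte genes 1 had it in BTSC and 0 in NSC.

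The promoters that lay under a TLX peak are shown because they are where TLX and the start of a pathway gene coincided. RefSeq promoter windows of build GRCm38.p6 (mm10), from 250 bases before to 50 after a start site, were found for 7 of the 10 genes with 12 windows in all. None was found for Wnt7b, Wnt5a and Lgr5. The BTSC TLX peak of Wnt5a, with its summit 265 bp inside the lower end of the gene, was thus not compared with a promoter window. The windows of Wnt7a (chr6:91411304-91411603, minus strand), Fzd1 (chr5:4758167-4758466, minus strand), Axin2 (chr11:108920099-108920398, plus strand) and Tcf7l1 (chr6:72788996-72789295, minus strand) overlapped a TLX peak of NSC, and 0 of the 12 overlapped one of BTSC. Each is given 5′ to 3′ on the strand of the gene, with the bases inside the NSC TLX peak in capitals.
Wnt7a promoter: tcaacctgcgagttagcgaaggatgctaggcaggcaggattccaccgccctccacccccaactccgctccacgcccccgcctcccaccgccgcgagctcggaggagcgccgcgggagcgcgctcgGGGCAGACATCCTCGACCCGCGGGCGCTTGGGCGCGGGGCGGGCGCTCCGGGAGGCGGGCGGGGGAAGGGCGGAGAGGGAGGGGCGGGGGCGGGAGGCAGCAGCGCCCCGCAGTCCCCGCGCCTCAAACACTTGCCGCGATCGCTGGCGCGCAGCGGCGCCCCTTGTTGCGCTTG
Fzd1 promoter: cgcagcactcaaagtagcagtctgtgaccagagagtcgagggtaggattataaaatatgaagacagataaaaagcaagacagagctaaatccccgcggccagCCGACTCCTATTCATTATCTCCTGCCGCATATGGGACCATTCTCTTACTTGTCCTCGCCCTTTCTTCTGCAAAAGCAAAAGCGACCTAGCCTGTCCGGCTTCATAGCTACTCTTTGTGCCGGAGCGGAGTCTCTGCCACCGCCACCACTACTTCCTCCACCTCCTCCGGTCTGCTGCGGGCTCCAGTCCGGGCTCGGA
Axin2 promoter: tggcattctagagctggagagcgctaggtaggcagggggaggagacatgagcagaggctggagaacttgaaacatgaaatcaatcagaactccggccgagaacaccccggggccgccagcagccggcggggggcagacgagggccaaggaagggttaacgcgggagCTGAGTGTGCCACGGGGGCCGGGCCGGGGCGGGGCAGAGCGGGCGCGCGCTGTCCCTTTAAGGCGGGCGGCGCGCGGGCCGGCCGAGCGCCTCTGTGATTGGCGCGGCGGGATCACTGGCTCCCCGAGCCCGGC
Tcf7l1 promoter: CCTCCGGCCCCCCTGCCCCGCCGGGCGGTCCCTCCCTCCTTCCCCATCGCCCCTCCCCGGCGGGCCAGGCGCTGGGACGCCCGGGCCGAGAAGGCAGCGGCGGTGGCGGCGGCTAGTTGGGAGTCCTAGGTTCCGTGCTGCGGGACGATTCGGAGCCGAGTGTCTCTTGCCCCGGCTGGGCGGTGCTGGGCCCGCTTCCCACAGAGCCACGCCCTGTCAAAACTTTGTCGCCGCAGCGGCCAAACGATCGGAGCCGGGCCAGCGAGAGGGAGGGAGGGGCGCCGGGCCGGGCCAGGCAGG

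The NSC peak covered 175 of the 300 bases at Wnt7a, 198 at Fzd1, 134 at Axin2 and 300 at Tcf7l1. Its summit lay outside the window each time, downstream of the start site by 162, 764, 834 and 204 bp in that order. The part of each peak outside the window, with the summit, was not searched for motifs. The 6-base core bound by TLX, AAGTCA, was in 0 of these 4 windows on either strand, against 15.1% of 32851 promoter windows of the same length. The 6-base core bound by TCF and LEF factors, CTTTGA, was in 1 of the 4, at Fzd1, where it begins at position -242 from the start site, on the opposite strand and outside the TLX peak, against 16.0% of all windows. The share of G and C was 76.0% for Wnt7a, 70.0% for Axin2 and 75.3% for Tcf7l1, above the median of 52.7% over all windows, and 54.0% for Fzd1, close to that median. Of the other 8 windows 7 held neither motif, and the exception was an internal start of Lef1 (chr3:131156044-131156343, plus strand) that lay under no TLX peak. It is shown for contrast, with the motifs in capitals.
Lef1 internal promoter: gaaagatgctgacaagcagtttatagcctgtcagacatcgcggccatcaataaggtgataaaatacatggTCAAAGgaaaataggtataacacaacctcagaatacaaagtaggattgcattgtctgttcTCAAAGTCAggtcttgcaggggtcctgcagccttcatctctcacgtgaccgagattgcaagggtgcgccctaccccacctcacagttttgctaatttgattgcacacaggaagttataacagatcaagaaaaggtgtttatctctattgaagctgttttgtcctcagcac

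That Lef1 window held AAGTCA on the plus strand and CTTTGA at 2 places on the minus strand, and the TLX core and a TCF and LEF core overlapped by 3 bases. A match of letters is a description of the window and not a measured site.

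Near the 10 genes the TLX lists had 4 peaks in BTSC and 28 in NSC. In BTSC 3 of the 10 genes had a TLX peak, namely Wnt5a, Axin2 and Tcf7l1, against 10.2% of all protein-coding genes. With only peaks of a −log10 q of at least 5, Tcf7l1 was left, with 2 peaks. In NSC 8 of the 10 had a TLX peak, all but Ctnnb1 and Lef1, against 42.1% of all genes. These 10 were chosen with earlier results of these data known, so the comparison with all genes is only descriptive. Of 69 other pathway genes, 9 had a TLX peak in BTSC and 32 in NSC. Of the 10 genes, the 3 with TLX in BTSC also had it in NSC (9.40% of all genes had it in both), 5 had it in the NSC list only (32.7% of all genes), and 0 in the BTSC list only (0.827%). When only the 1436 strongest NSC peaks were kept, as many as BTSC has, 5 of the 10 genes had TLX in NSC, namely Wnt7a, Wnt7b, Lgr5, Axin2 and Tcf7l1, against 9.86% of all genes. Windows around these genes were somewhat long, with a median of 147 kb against 117 kb for all genes. Per 100 kb of window there were 0.224 TLX peaks in BTSC and 1.57 in NSC, against 0.0811 in BTSC and 0.467 in NSC over all genes. H3K27ac covered 13.5% of these windows in BTSC and 11.5% in NSC, against 5.3% in BTSC and 4.73% in NSC over all genes. Most TLX peaks of either list overlapped H3K27ac (93.2% in BTSC and 91.6% in NSC). The part of the wider cover in these TLX counts was not tested. The fold enrichment of the TLX peaks near the 10 genes, the authors' ratio of signal over the caller's background, ran from 3.43 to 9.39 in BTSC and from 3.23 to 16.3 in NSC.

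**Figure D1:**
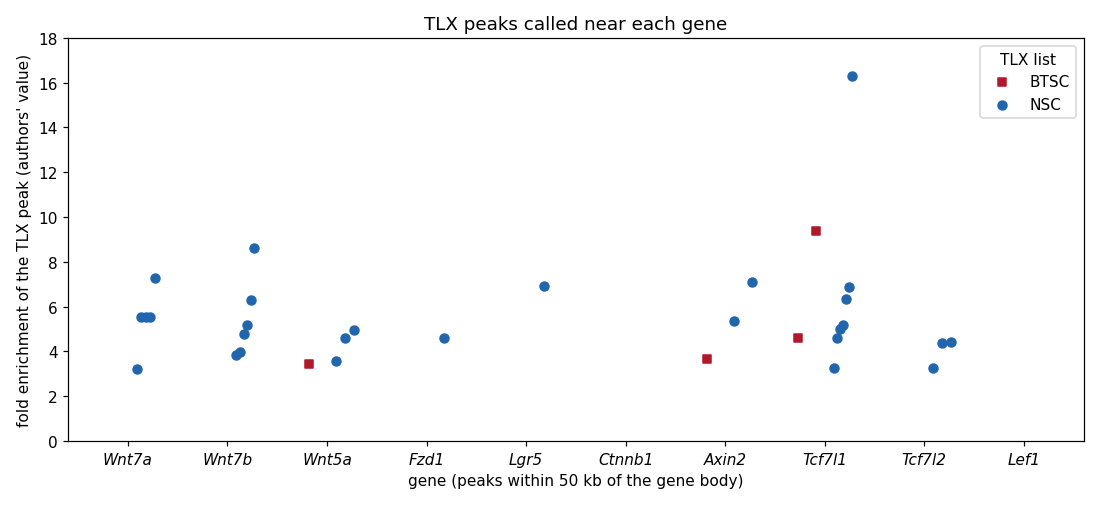
Fold enrichment (vertical axis, the authors' linear ratio) of each TLX peak within 50 kb of the 10 genes, with BTSC peaks as squares to the left and NSC peaks as circles to the right. BTSC peaks stand only at Wnt5a, Axin2 and Tcf7l1, and the highest point is the NSC peak of fold 16.3 in Tcf7l1.

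Wnt7a, a ligand that acts through beta-catenin in the developing brain (chromosome 6, 91363981 to 91411353), had 0 TLX peaks in BTSC and 5 in NSC. The NSC peak at its start (91410623 to 91411478) had a fold of 5.55, with the summit 162 bp downstream of the start site. The strongest NSC peak (91345778 to 91346575) had a fold of 7.26 and a summit 17891 bp beyond the other end of the gene, beside a peak of fold 5.55 at 91347653 to 91348384. Another lay inside the gene with a fold of 3.23, and the last, with a fold of 5.55, lay 29559 bp upstream of the start. Wnt7a thus had TLX at its start and at distal places in the NSC list, whereas the nearest TLX peak of the BTSC list was 667556 bp away. Over all of chromosome 6, 72 of 769 NSC TLX peaks overlapped a BTSC peak (9.36%). H3K27ac covered 18687 bp of the Wnt7a window in BTSC and 35636 bp in NSC, a ratio of 0.524, and 0.663 relative to chromosome 6. Of 823 chromosome 6 genes tested, 136 had a ratio as low or lower. The acetylated region at the start was 3108 bp wide with a fold of 11.8 in BTSC and 2932 bp wide with a fold of 21.7 in NSC. The distal region that holds the strongest TLX peak was 6028 bp wide with a fold of 14.7 in BTSC (rank 2397 in its list) and 6518 bp wide with a fold of 29.1 in NSC (rank 119). These 2 regions were of similar width in both cultures, and the shortfall of cover in BTSC lay in weaker regions. Inside the gene, 91378334 to 91386112 was 1 region of 7779 bp in NSC, where BTSC had regions of 1404 and 1449 bp.

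Wnt7b, a close relative of Wnt7a that also acts through beta-catenin (chromosome 15, 85535437 to 85581821), had 0 TLX peaks in BTSC and 6 in NSC, with H3K27ac in the opposite direction to Wnt7a. H3K27ac covered 67316 bp of its window in BTSC and 43141 bp in NSC, a ratio of 1.56, and 1.45 relative to chromosome 15; by number of peaks, 9 in BTSC and 10 in NSC, the ratio was 0.9. Over the gene BTSC had a single region of 28666 bp (85554939 to 85583604), where NSC had 3 regions of 4547, 17211 and 3243 bp. BTSC also had regions of 9207, 3846 and 1027 bp over the lower-coordinate part of the gene, where NSC had no peak. The strongest acetylated region in the window, beyond the upper end of the gene, was 5040 bp wide with a fold of 31.3 in BTSC (rank 122 in its list) and 5164 bp wide with a fold of 16.9 in NSC (rank 1978). That region held 2 TLX peaks of NSC, with folds of 6.31 (85610701 to 85611934) and 8.61 (85613136 to 85614222), and 0 of BTSC. Wnt7b therefore had its strongest TLX peaks of the NSC list in a distal region that was acetylated in both cultures. The remaining 4 NSC peaks had folds from 3.82 to 5.16, and the nearest TLX peak of the BTSC list was 72743 bp away.

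**Figure D2:**
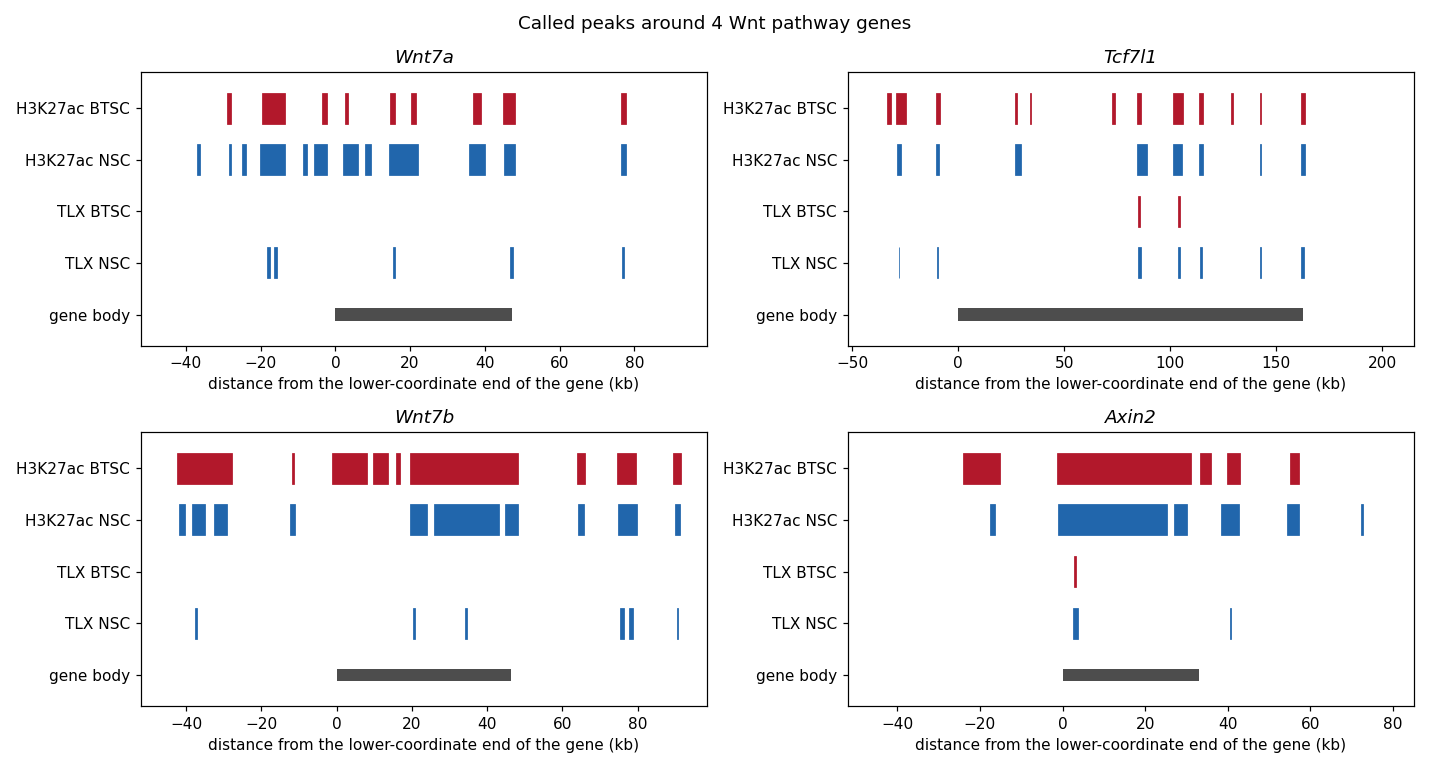
Peaks called around Wnt7a, Tcf7l1, Wnt7b and Axin2, by distance in kb from the lower-coordinate end of the gene; rows from the top are H3K27ac in BTSC, H3K27ac in NSC, TLX in BTSC and TLX in NSC, with the gene body as a bar. TLX peaks of BTSC appear at Tcf7l1 and Axin2 of these 4 genes, and the BTSC region of 28666 bp over Wnt7b faces 3 NSC regions.

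Wnt5a, a ligand best known for signalling without beta-catenin (chromosome 14, 28504543 to 28527448), had 1 TLX peak in BTSC and 3 in NSC. The BTSC peak (28504614 to 28505427) had a fold of 3.43 and ranked 1433 of 1436, close to the end of its list. It overlapped the NSC peak at 28504663 to 28505397, which had a fold of 4.97, and their summits were 262 bp apart, near the lower end of the gene. The other NSC peaks had folds of 3.55 and 4.59. H3K27ac covered 10266 bp of the window in BTSC and 6411 bp in NSC, a ratio of 1.60, and 1.48 relative to chromosome 14. The region around the TLX peak was 7122 bp wide with a fold of 18.9 in BTSC and 5527 bp wide with a fold of 9.53 in NSC.

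Of the receptors, Fzd1, a Frizzled receptor for Wnt ligands (chromosome 5, 4753839 to 4758216), had 0 TLX peaks in BTSC and 1 in NSC. The NSC peak (4757243 to 4758364) covered part of its start, had a fold of 4.59 and had its summit 764 bp downstream of the start site. H3K27ac covered 3584 bp of the Fzd1 window in BTSC and 5368 bp in NSC, a ratio of 0.668, and 0.591 relative to chromosome 5. The region at its start was 2454 bp wide with a fold of 16.0 in BTSC and 3438 bp wide with a fold of 20.3 in NSC. Lgr5, a receptor for R-spondins that strengthens Wnt signals and marks stem cells of the gut (chromosome 10, 115450314 to 115587780), had 0 TLX peaks in BTSC and 1 in NSC. That peak (115468792 to 115469584) lay inside the gene with a fold of 6.92, in an acetylated region of 1284 bp in BTSC and 1526 bp in NSC. H3K27ac covered 9548 bp of the Lgr5 window in BTSC and 7893 bp in NSC, a ratio of 1.21, which turned to 0.841 with only peaks of a −log10 q of at least 5. Both receptors thus had a single TLX peak, in the NSC list, in a region acetylated in both cultures.

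Of the core components, Ctnnb1, the gene of beta-catenin itself (chromosome 9, 120933400 to 120960507), had 0 TLX peaks in BTSC and 0 in NSC. Its nearest TLX peak was 193586 bp away in BTSC and 193620 bp away in NSC. H3K27ac covered 12004 bp of the Ctnnb1 window in BTSC and 12076 bp in NSC, and the region at its start was 3080 bp wide with a fold of 9.84 in BTSC and 2602 bp wide with a fold of 10.4 in NSC. Part of that cover lay over the neighbouring gene Ulk4, and within 10 kb of Ctnnb1 the ratio was 1.74. Axin2, a scaffold of the destruction complex and a widely used target of beta-catenin signalling (chromosome 11, 108917828 to 108950783), had 1 TLX peak in BTSC and 2 in NSC. The BTSC peak (108920568 to 108921168) had a fold of 3.66, ranked 1400 of 1436 and had its summit 245 bp downstream of the start site of the promoter shown above. It lay within the NSC peak at 108920265 to 108921508, which had a fold of 7.08 and a summit 834 bp downstream. Axin2 thus had TLX near that start site in both lists, at a rank near the end of the BTSC list. The start site of the promoter shown lies inside the annotated gene body. From the lower end of that body the summit was 2766 bp away in BTSC and 3355 bp away in NSC. A further NSC peak (108958242 to 108958673) with a fold of 5.35 lay 7680 bp beyond the gene. H3K27ac covered 49654 bp of the Axin2 window in BTSC and 38420 bp in NSC, a ratio of 1.29, or 0.833 by number of peaks. Most of it was a region over the gene of 32457 bp with a fold of 10.1 in BTSC and of 26320 bp with a fold of 9.80 in NSC. A region beyond the lower end of the gene was 9038 bp wide in BTSC and 1109 bp wide in NSC.

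Of the DNA-binding factors, Tcf7l1, which mostly represses Wnt targets in the absence of beta-catenin (chromosome 6, 72626371 to 72789045), had the strongest TLX peaks of the 10 genes in either culture. Its leading peak lay inside the gene, 72711193 to 72712246 with a fold of 9.39 in BTSC and 72710945 to 72712411 with a fold of 16.3 in NSC. It ranked 80 of 1436 in BTSC and 46 of 7458 in NSC, and the summits were 26 bp apart. The second shared peak had a fold of 4.58 in BTSC and 5.16 in NSC, with summits 3 bp apart. Tcf7l1 had 2 TLX peaks in BTSC and 7 in NSC in all, and the NSC list also had a peak at its start with a fold of 4.59. A pair of the NSC peaks lay below the gene, at Retsat and Tgoln1. H3K27ac covered 23463 bp of the Tcf7l1 window in BTSC and 19474 bp in NSC, a ratio of 1.20. Relative to chromosome 6 the ratio was 1.53, but it was 0.937 over bases for which Tcf7l1 is the nearest gene. The region under the leading TLX peak was 2146 bp wide with a fold of 13.4 in BTSC and 4575 bp wide with a fold of 6.64 in NSC, and the region at the start was 1793 bp wide with a fold of 19.6 in BTSC and 1937 bp wide with a fold of 19.9 in NSC.

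Tcf7l2, a factor that activates targets with beta-catenin (chromosome 19, 55741797 to 55933659), had 0 TLX peaks in BTSC and 3 in NSC. A pair of these had summits 989 and 2501 bp downstream of its start site, with folds of 4.40 and 3.25, and the third, with a fold of 4.38, lay 36319 bp beyond the gene. H3K27ac covered 46139 bp of the Tcf7l2 window in BTSC and 35891 bp in NSC, a ratio of 1.29, spread over 15 peaks in BTSC and 16 in NSC, which is 0.938 by number of peaks. The region at its start had nearly the same width and fold, 4838 bp and 22.6 in BTSC and 4865 bp and 23.1 in NSC. Lef1, another factor that activates targets with beta-catenin (chromosome 3, 131110297 to 131224357), had 0 TLX peaks in BTSC and 0 in NSC, the nearest being 1867337 bp away in BTSC and 265453 bp away in NSC. Its window held 1 H3K27ac peak, of 1274 bp in BTSC and 1316 bp in NSC, which lay at the far end of the neighbouring gene Hadh. Lef1 itself was therefore without a called H3K27ac peak in either list.

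TLX sites near these genes lay in acetylated chromatin in either culture, as did most TLX peaks of both lists. In BTSC 4 of 4 TLX peaks overlapped H3K27ac of BTSC (93.2% of all BTSC TLX peaks did) and 4 of 4 that of NSC (86.8%). In NSC 28 of 28 overlapped H3K27ac of NSC (exact Clopper-Pearson 95% interval 87.7 to 100%; 91.6% of all NSC TLX peaks) and 28 of 28 that of BTSC (88.1%). With only peaks of a −log10 q of at least 5 in every list, 21 of 23 NSC TLX peaks overlapped H3K27ac of NSC (91.3%). All 4 BTSC TLX peaks overlapped an NSC peak (81.8% of all BTSC peaks did), and 4 of 28 NSC peaks overlapped a BTSC peak, 14.3% (4.03 to 32.7%), beside 15.8% over the list. The 24 NSC peaks without a BTSC partner were all in regions acetylated in both cultures (85.8 to 100%), against 85.3% of such peaks over the list. Conversely, 4 of 67 H3K27ac peaks of BTSC held a TLX peak of BTSC (4.05% of all) and 24 of 68 of NSC held one of NSC, 35.3% (24.1 to 47.8%), against 20.2% of all. These intervals cover counting error only, and peaks near 1 gene are not independent of each other.

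H3K27ac lay within 1 kb of a gene end for 9 of the 10 genes in BTSC (51.7% of all genes) and for 9 in NSC (52.2%), the same 9 genes in both (49.6%), with Lef1 the exception. Of H3K27ac peaks near the 10 genes, 53 of 67 in BTSC overlapped an NSC peak (79.1%, against 76.8% of all), and 57 of 68 in NSC overlapped a BTSC peak (83.8%, against 79.0% of all). Covered base pairs of the 10 windows summed to 241935 in BTSC and 205626 in NSC, a ratio of 1.18, beside 1.12 for the windows of all genes. The order of the ratios was Wnt5a 1.60, Wnt7b 1.56, Axin2 1.29, Tcf7l2 1.29, Lgr5 1.21, Tcf7l1 1.20, Ctnnb1 0.994, Lef1 0.968, Fzd1 0.668 and Wnt7a 0.524; without replicates, neighbours in this order cannot be told apart. A ratio of 1.5 or more was reached by 2 of the 10, Wnt5a and Wnt7b, against 19.4% of the 16365 genes with a mean of at least 1000 covered bp. A ratio as far below 1 was reached by Wnt7a alone, against 11.5% of genes, and Fzd1 stood just short of it. Relative to their chromosomes, 1 gene was higher by that measure, Tcf7l1 (14.5% of genes), and 2 were lower, Wnt7a and Fzd1 (13.5%). These shares of members are near those of all genes. By covered base pairs, the ligands with the most H3K27ac in NSC went both ways, with less cover at Wnt7a and more at Wnt7b in BTSC. By number of peaks both ratios were below 1, at 0.75 for Wnt7a and 0.9 for Wnt7b.

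**Figure D3:**
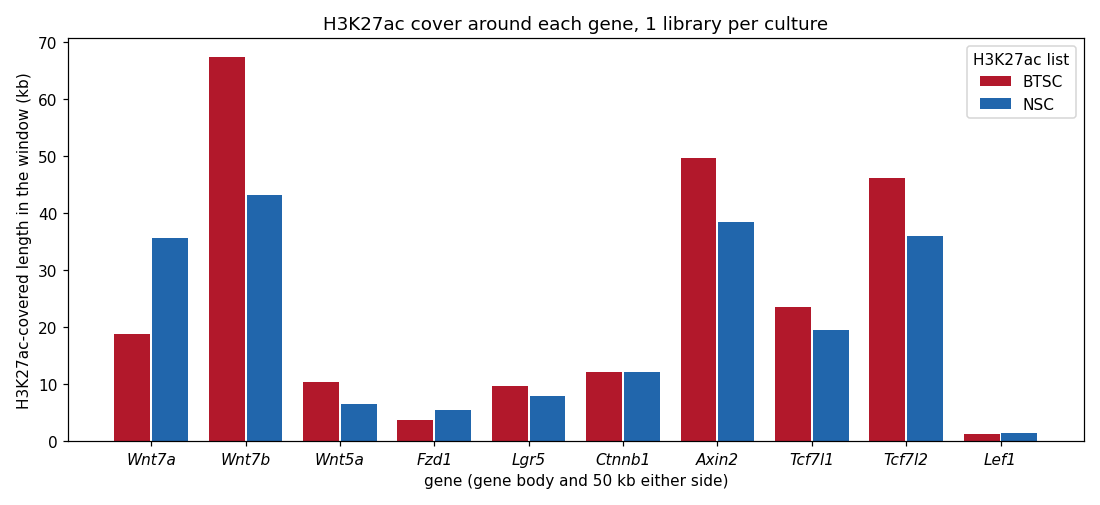
Length covered by H3K27ac peaks (vertical axis, kb) in the gene body and 50 kb either side of each gene, with BTSC bars to the left and NSC bars to the right, 1 library each and so without error bars. Wnt7b is tallest, at 67316 bp in BTSC and 43141 bp in NSC, and Wnt7a is lower in BTSC.

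**Figure D4:**
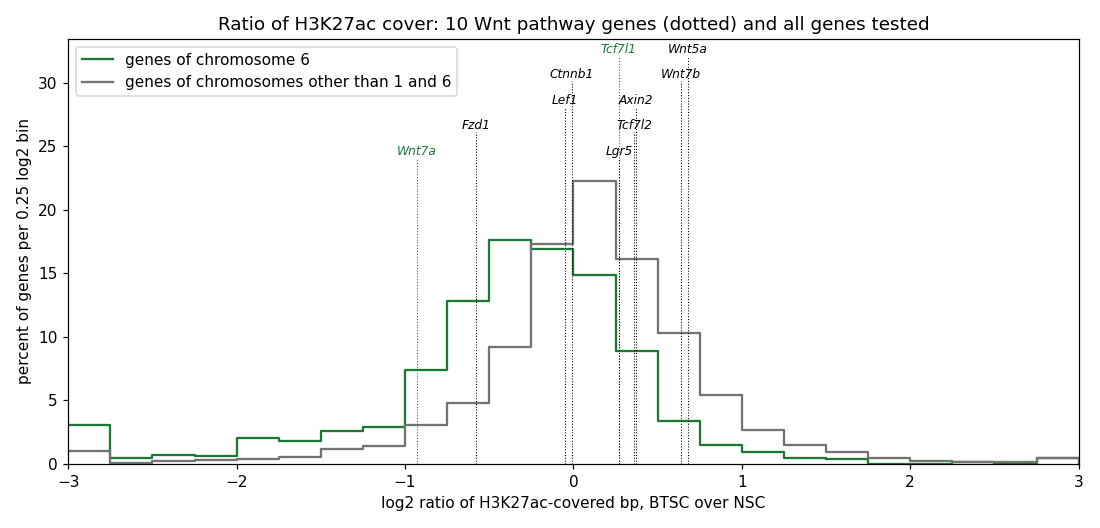
Distribution over genes of the log2 ratio of H3K27ac-covered bp, BTSC over NSC (horizontal axis), as a percentage of genes per bin, for chromosome 6 and for chromosomes other than 1 and 6; the outermost bins hold all values beyond them, and dotted lines mark the 10 genes. Wnt7a lies at -0.93 and Tcf7l1 at 0.27, on either side of the bulk of chromosome 6 genes.

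The rest of the pathway was followed in 69 further genes: other ligands and R-spondins, genes of ligand secretion, receptors, inhibitors, cytoplasmic components, nuclear components and targets. Of these, 9 had a TLX peak within 50 kb in BTSC, beside 10.2% of all genes, and 32 in NSC, beside 42.1% of all genes, so both counts are near the background. With assignment to the nearest gene the counts were 6 in BTSC and 21 in NSC, and within 10 kb they were 6 and 24. A TLX peak given below for a pathway gene is one within 50 kb, and another gene can be nearer to it. Wnt8b, a ligand of the forebrain, had 1 TLX peak in BTSC and 0 in NSC. The receptor genes Fzd2 and Fzd7 had 1 each in BTSC, with 3 and 2 in NSC, and Znrf3, an enzyme that removes Frizzled receptors from the cell surface, had 1 in BTSC and 3 in NSC. Among cytoplasmic components the scaffold gene Dvl2 and the kinase gene Gsk3a had 1 each in BTSC, with 2 and 5 in NSC. Among nuclear components the beta-catenin cofactor gene Bcl9l and the corepressor genes Tle2 and Tle4 had 1 each in BTSC, with 3, 1 and 2 in NSC. Nuclear components had TLX in 3 of 9 genes in BTSC and 6 of 9 in NSC, cytoplasmic components in 2 of 8 and 5 of 8, receptors in 2 of 15 and 7 of 15, inhibitors in 1 of 13 and 6 of 13, ligands in 1 of 19 and 5 of 19, targets in 0 of 3 and 2 of 3, and genes of secretion in 0 of 2 and 1 of 2, with the BTSC count before the NSC count in each pair. Differences between these small classes were not tested. At least 5 TLX peaks of NSC, a number set after the values were seen, were near Wnt7a, Wnt7b and Tcf7l1 of the 10 genes, near Gsk3a and Tle3 of the other 69, and near 1.18% of all genes.

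H3K27ac of the other pathway genes went in both directions. Of 60 with a mean of at least 1000 covered bp, 16 had a ratio of 1.5 or more, beside 19.4% of all genes, and 11 a ratio as far below 1, beside 11.5%. Relative to their chromosomes 13 were higher and 13 lower, beside 14.5% and 13.5% of all genes. The median log2 ratio was 0.02 beside 0.12 over all genes. Of 14 ligand genes tested, 5 were higher by that measure (Wnt3, Wnt4, Wnt6, Wnt10a and Wnt11) and 3 were lower (Wnt1, Wnt2b and Wnt10b), also relative to their chromosomes. Wnt6 had 5700 covered bp in BTSC and 863 in NSC, and its neighbour Wnt10a, whose window shares regions with it, had 4213 in BTSC and 863 in NSC; both lie on chromosome 1, and relative to it their ratios were 3.98 and 2.94. Wnt4 had 6111 bp in BTSC and 1924 in NSC, Wnt11 had 3158 in BTSC and 1050 in NSC, and the secreted inhibitor gene Sfrp5 had 5112 in BTSC and 1823 in NSC. None of these 5 had a TLX peak in either list. At the lower end, Sp5, a target of the pathway, had 603 bp in BTSC and 2651 in NSC, and Wnt2b had 3436 in BTSC and 8659 in NSC. The receptor gene Fzd4 had 2286 bp in BTSC and 4963 in NSC, Ctnnbip1, an inhibitor that binds beta-catenin, had 6385 in BTSC and 12917 in NSC, and Nkd1, a feedback inhibitor, had 5820 in BTSC and 9828 in NSC. The last 3 had 0 TLX peaks in BTSC and 1 each in NSC. Of these other ligand and R-spondin genes, 2 of 19 had H3K27ac within 1 kb of a gene end in BTSC, Wnt4 and Wnt8b, and 0 of 19 in NSC. The share over all genes was 51.7% in BTSC and 52.2% in NSC. The 19 leave out Wnt7a, Wnt7b and Wnt5a, which all had such H3K27ac in both cultures, so they do not stand for all Wnt ligands. Of the other receptor genes 13 of 15 had it in BTSC and 13 of 15 in NSC, as did Fzd1 and Lgr5 in both. The difference between the classes was not tested.

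**Figure D5:**
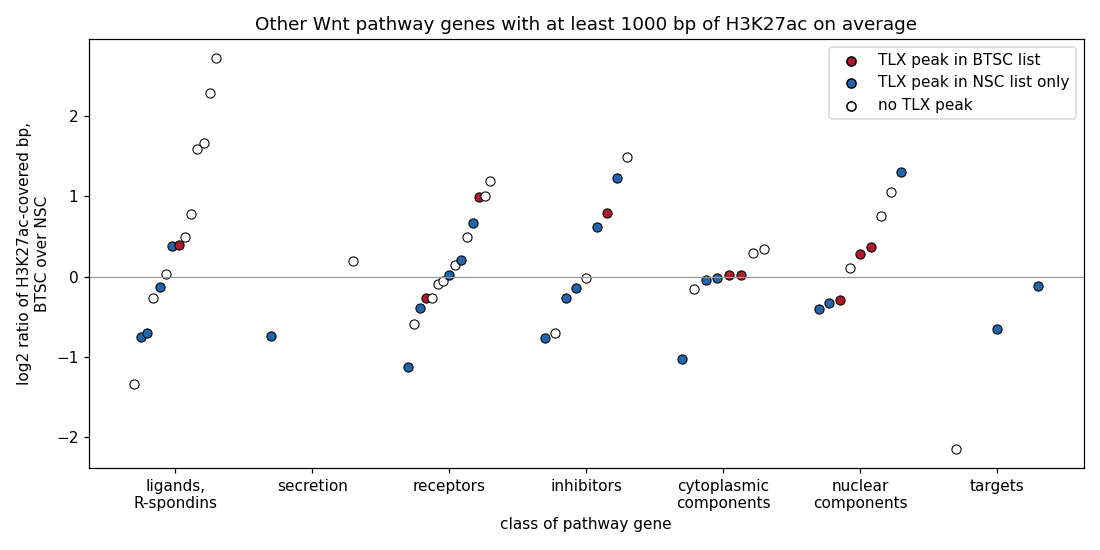
Log2 ratio of H3K27ac-covered bp, BTSC over NSC (vertical axis), for the other pathway genes by class, with fill giving whether a TLX peak was called within 50 kb. The highest value is that of the ligand gene Wnt6 at 2.72, and the lowest that of the target gene Sp5 at -2.14.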

How the data were processed

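Mouse BTSC and NSC cultures were profiled by chromatin immunoprecipitation for TY1-tagged TLX and for H3K27ac, with 1 library per group. The submitters' processing notes name bcl2fastq 2.17.1.14, Bowtie, ChIPseeker and build mm10, and no source used here names the peak caller. The authors deposited a narrow peak list for each TLX library and a broad one for each H3K27ac library. For every peak the deposited lists hold a score, −log10 values of p and q, and a fold enrichment, which is a ratio on a linear scale, and for TLX a summit. Folds and ranks by q are the authors' per peak and describe peaks within a list; values of both lists are printed side by side without a test. How deeply each library was read, and so the precision of a missing peak, is unknown.

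Genes were 21883 protein-coding genes of RefSeq GRCm38.p6, the assembly of mm10. Peaks overlapping a gene body or 50 kb either side by at least 1 bp were counted, and covered base pairs were summed within that window. Ratios are BTSC over NSC and were read for genes with a mean of at least 1000 covered bp; 1.5-fold marks a difference. A ratio relative to the chromosome is divided by the ratio of all covered base pairs of that chromosome outside the window. Shares have exact Clopper-Pearson 95% intervals. Interval functions were tested on simulated data. Python 3.11.15, pandas 2.3.3, numpy 2.4.6, scipy 1.17.1 and matplotlib 3.10.9 were used.

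The members, lists, motifs and rules were chosen with earlier results of these data known. Of the other pathway genes, those with a TLX peak in BTSC and the 5 per direction with the largest H3K27ac ratio are named with values. Alternatives were windows of 10 and 100 kb, a −log10 q of at least 5, equal numbers of TLX peaks, assignment to the nearest gene, a reciprocal overlap of 50%, summits within 200 bp, the TLX summit inside H3K27ac, H3K27ac of the other culture, ratios relative to the chromosome, and numbers of peaks; leaving out chromosome 6 was added after the data had been seen.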

Additional observations from a re-analysis of the deposited data

How the results depend on the processing

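With 1 library per group, no replicate could be left out. No paired analysis was possible because each group has 1 sample. Of 77 counts, shares and ratios under the alternatives, 56 stayed within 1.5 times the reported count or ratio, or within the interval of the reported share, and the cause was not tested for the rest, listed next. With a −log10 q of at least 5, the genes with TLX in BTSC were 1 (Tcf7l1), TLX peaks of BTSC near the genes were 2, other pathway genes with TLX in BTSC were 5, and genes with a 1.5-fold difference in H3K27ac were 1 higher and 2 lower in BTSC. With a window of 100 kb, 5 genes had TLX in BTSC, TLX peaks near the genes were 9 in BTSC and 43 in NSC, other pathway genes with TLX in BTSC were 16, and 1 gene was higher in H3K27ac. With equal numbers of TLX peaks, NSC had 5 genes with TLX, 7 TLX peaks near the genes and 7 other pathway genes with TLX, since fewer peaks enter. With assignment to the nearest gene, other pathway genes with TLX in NSC were 21 and 2 genes were lower in H3K27ac. Relative to the chromosome, 1 gene was higher and 2 were lower. With a reciprocal overlap of 50%, shared H3K27ac peaks were 56.7% in BTSC and 55.9% in NSC. Without Wnt7a and Tcf7l1 on chromosome 6, TLX peaks were 2 in BTSC and 16 in NSC. By numbers of peaks in place of base pairs, the Wnt7b ratio turned to 0.9, that of Axin2 to 0.833 and that of Tcf7l2 to 0.938; wide BTSC regions of 28666 and 14605 bp at Wnt7b face 3 NSC regions each. The Lgr5 ratio turned to 0.841 with a −log10 q of at least 5, that of Lef1 to 1.44 with a window of 100 kb, and that of Tcf7l1 to 0.937 by nearest gene and 0.952 within 10 kb. The Ctnnb1 ratio was 1.67 by nearest gene and 1.74 within 10 kb, both of which leave out most of the cover over Ulk4. Over 7 settings the ratio of Wnt7a stayed below 1 (0.404 to 0.75), as did that of Fzd1 (0.497 to 0.714), and that of Wnt5a stayed above it (1.48 to 1.86). For the share of BTSC TLX peaks that overlapped an NSC peak, 4 of 4, the interval was too wide (39.8 to 100%) to show stability. That share was 2 of 4 with equal numbers of TLX peaks and 2 of 4 with summits within 200 bp. It was 3 of 4 with a reciprocal overlap of 50%.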

Other observations

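Of the other pathway genes, Gsk3a, whose kinase marks beta-catenin for degradation, had 5 TLX peaks of NSC and 1 of BTSC in its window, with 33489 H3K27ac-covered bp in BTSC and 33025 in NSC. The corepressor gene Tle3 had 0 TLX peaks in BTSC and 5 in NSC, with 9549 covered bp in BTSC and 12638 in NSC. The ligand gene Wnt2 on chromosome 6 had 0 TLX peaks in BTSC and 1 in NSC in a window with 0 covered bp in BTSC and 0 in NSC. Wnt5b, also on chromosome 6, had 0 TLX peaks in BTSC and 2 in NSC, with 12460 covered bp in BTSC and 13608 in NSC. Znrf3 had the widest cover of the named inhibitors, with 51930 bp in BTSC and 29873 in NSC, a ratio of 1.74.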
